A study of Mus musculus with 6 samples.

Results

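The genes described here are 41 stellate cell and extracellular matrix genes of the mouse, out of 55487 gene identifiers measured. They were chosen by name for their known roles, as markers of quiescent hepatic stellate cells, of fibroblasts and pericytes, or as parts of the matrix and its processing, with the mesothelial marker Msln beside them. RNA was sequenced from cultured primary hepatocytes in 2 groups of 3 libraries. Both groups were littermates from heterozygote breeding on the B6CBAF1 background, were kept on regular chow, and gave hepatocytes that received no treatment. WT mice carried no transgene. Alb/MDA-9 mice carried a human MDA-9/SDCBP transgene with a C-terminal HA tag (the product, syntenin, is a scaffold for syndecans and other membrane proteins), under the albumin enhancer and core promoter, which are active in hepatocytes. Age and sex were not given in the sources used here.

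Hepatic stellate cells lie between hepatocytes and the sinusoidal endothelium, where they store vitamin A as retinyl esters. On injury they are known to lose these stores, take on contractile proteins and lay down fibrillar collagen. Matrix molecules of the liver come from several cell types: hepatocytes make most plasma fibronectin, while type IV collagen of basement membranes is made by stellate, endothelial and other cells. The libraries are bulk samples of hepatocyte cultures, so fewer cells of a type and less RNA per cell cannot be told apart in any result below.

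Each library held 16403918 to 19046739 gene reads on the annotated strand. The genotypes separated on the first principal component (55.5% of the variance). On the second (16.98%) the library Alb/MDA-9 3 lay far from the rest. All 10 hepatocyte markers examined had reads, with a summed level of 74321 to 78161 CPM in WT and 78086 to 92775 CPM in Alb/MDA-9 (CPM, read counts scaled to library size with TMM factors). Most of that sum was the albumin gene Alb (54048 to 70170.0 CPM over the 6 libraries). Without it the sums were 19782 to 20550.0 CPM and 22605 to 22996 CPM. Of the 10 markers Cps1 fell (log2 change -0.95), and Tf (0.56) and Apob (0.36) rose. Of the 13296 genes that passed the filter on low counts, 943 were lower in Alb/MDA-9, which is 7.09% of those tested, and 977 were higher, which is 7.35% (adjusted p under 0.05 by the quasi-likelihood test of edgeR).

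The type IV collagen genes Col4a1 and Col4a2 are neighbours on chromosome 8 that are read away from each other, and both fell (values further down). Their promoter windows are shown because these genes share the DNA around their starts. Each window spans 250 bases before to 50 after the start (RefSeq, build GRCm38.p6), Col4a1 at chr8:11312777-11313076 on the minus strand and Col4a2 at chr8:11312555-11312854 on the plus strand. Capitals mark the 78 bases held by both windows (chr8:11312777-11312854), read on opposite strands. The annotated starts lay 21 bases apart, with the genes overlapping by 22 bases on opposite strands. The window of the fibrillar collagen gene Col3a1 (chr1:45311288-45311587, plus strand), which also fell, is set beside them for its different composition, with capitals at the matches to the motifs searched.
Col4a1: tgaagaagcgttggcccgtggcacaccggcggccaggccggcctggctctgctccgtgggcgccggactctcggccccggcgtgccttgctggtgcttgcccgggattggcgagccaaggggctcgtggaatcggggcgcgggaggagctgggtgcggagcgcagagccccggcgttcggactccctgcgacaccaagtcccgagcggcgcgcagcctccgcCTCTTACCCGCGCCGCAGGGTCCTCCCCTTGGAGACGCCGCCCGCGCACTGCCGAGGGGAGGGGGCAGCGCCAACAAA
Col4a2: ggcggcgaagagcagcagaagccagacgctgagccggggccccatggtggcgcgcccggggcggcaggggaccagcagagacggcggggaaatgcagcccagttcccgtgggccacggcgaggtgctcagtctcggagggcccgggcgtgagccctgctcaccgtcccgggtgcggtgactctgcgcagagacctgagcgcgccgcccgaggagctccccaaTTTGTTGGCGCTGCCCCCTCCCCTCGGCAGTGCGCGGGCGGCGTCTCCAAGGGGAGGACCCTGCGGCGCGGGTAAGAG
Col3a1: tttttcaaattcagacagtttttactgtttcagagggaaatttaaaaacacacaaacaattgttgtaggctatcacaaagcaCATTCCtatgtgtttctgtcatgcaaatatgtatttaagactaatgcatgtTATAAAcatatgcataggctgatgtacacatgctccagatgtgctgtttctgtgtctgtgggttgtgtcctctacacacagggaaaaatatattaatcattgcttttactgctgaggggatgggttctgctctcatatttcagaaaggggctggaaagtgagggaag

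The Col4a1 window held 37 CpG dinucleotides at 74.0% G and C, and the Col4a2 window 33 at 73.7%. The Col3a1 window held 0 CpG at 37.7%. A TATA-type match, TATAAA, stood at bases 134 to 139 of the Col3a1 window, and a TEAD-type match, GGAATG on the opposite strand, at bases 83 to 88. CCAAT was found in both type IV windows. Of the 41 genes, 28 had an entry in the promoter table, with 31 windows in all. Motifs were searched on both strands, and windows were counted by whether they held a match, not by the number of matches. The share among all 32851 windows of the table is given for each motif. TATAAA was in 3 of the 31 windows, against 13.6% of all windows, and these were 3 of the 13 windows of genes that fell and 0 of the 17 windows of genes that did not pass the test. GGAATG was in 5 (14.7% of all windows), CCAAT in 10 (37.4%), GGGCGG in 19 (35.7%), the AP-1 motif TGANTCA in 2 (7.81%) and the CArG box, known for binding serum response factor, in 0 (1.63%). In the same 13 and 17 windows GGAATG was in 3 and 2, and CCAAT in 5 and 5. GGGCGG was in 8 and 10, and TGANTCA in 1 and 1. Whether a motif goes with a change was not tested. A match is a string of letters in the window and says nothing on binding.

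Of the 41 genes, 39 passed the low-count filter. In Alb/MDA-9, 17 of these 39 fell, or 43.6% beside 7.09% of all tested genes, and 1 rose, or 2.56% beside 7.35%. The other 21 did not pass the test. The 17 include Msln, which passed the low-count filter through its WT libraries alone, a route that itself selects for a difference. At an unadjusted p under 0.05, 21 were lower and 1 was higher. Without Alb/MDA-9 3 the counts were again 17 and 1, and without WT 1 or without WT 2 the number lower was 11, where 4.21% and 3.81% of all genes were lower. The median log2 change of the 39 was -0.45, against -0.0015 over all tested genes, and 35 of the 39 had a change below 0. For 20 genes all 3 Alb/MDA-9 libraries lay below all 3 WT libraries, which was so for 16.5% of all genes tested, and for 1 gene they lay above, which was so for 17.1%. Changes between genes ranged from -3.26 for Msln to 0.36 for Fn1. Ngfr and Mgp were not tested: Ngfr, a receptor gene used as a stellate cell marker, had 25 reads over the 3 WT libraries and 4 over the Alb/MDA-9 libraries, and Mgp, which encodes matrix Gla protein, had 1 and 1.

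**Figure D1:**
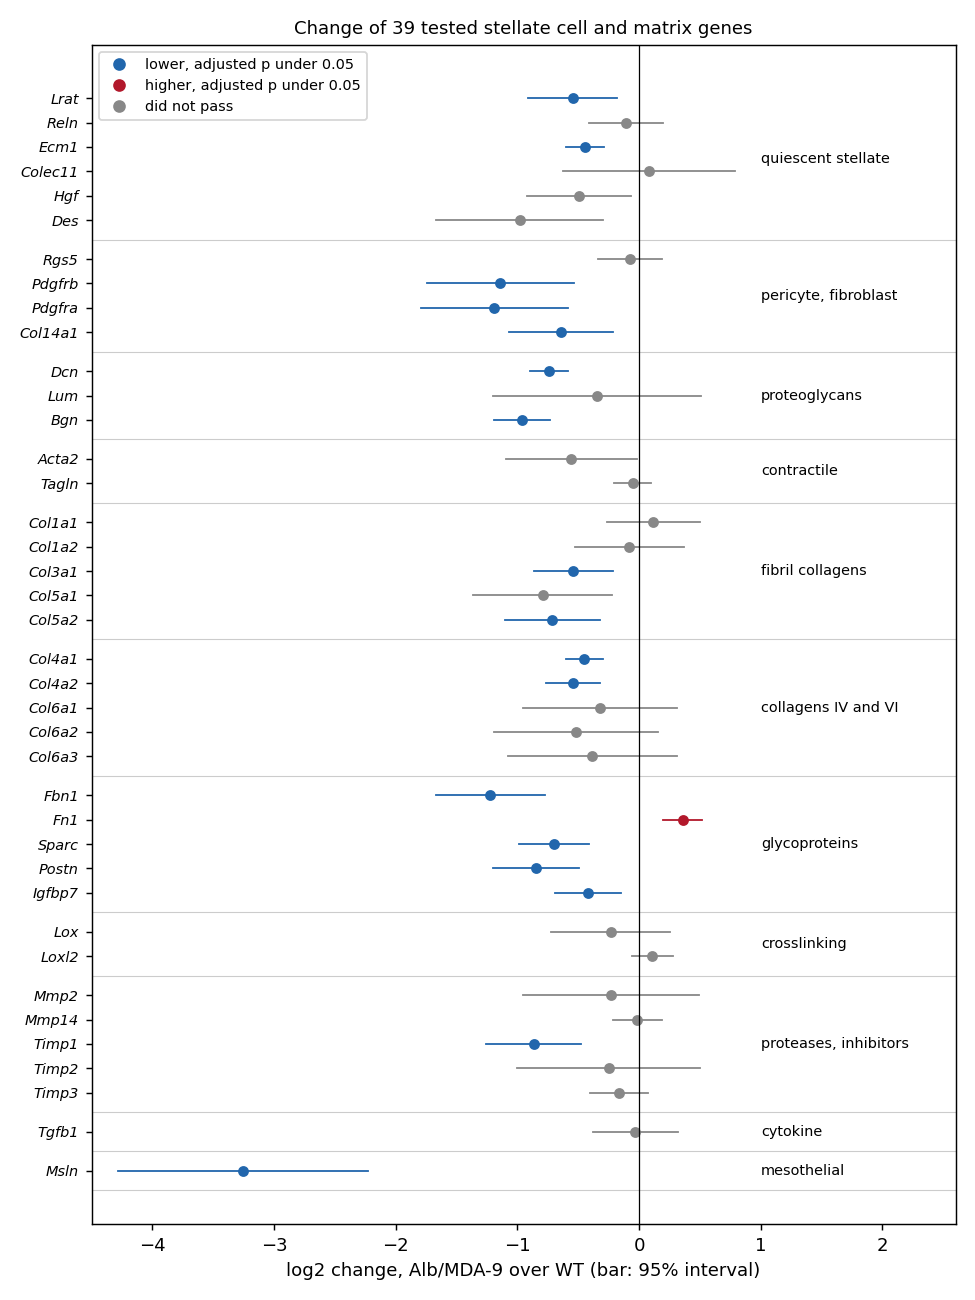
Log2 change in Alb/MDA-9 over WT (x axis) for the 39 tested genes, grouped by role (y axis). Points are edgeR estimates and bars their 95% intervals; 17 genes fell (blue), Fn1 rose (red) and the intervals of both type I collagen genes span 0.

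Markers of other liver cells moved in the same libraries. Of 13 Kupffer cell (liver macrophage) markers 9 fell and 0 rose, beside 7.09% and 7.35% of all genes tested. Their summed level was 420.4 to 433 CPM in WT and 243 to 397 CPM in Alb/MDA-9. Most of it was Cd68, a macrophage gene that did not pass the test (262 to 284 CPM in WT and 322, 284 and 137 CPM in Alb/MDA-9 1 to 3). Without Cd68 the sums were 149 to 158 CPM in WT and 74.8, 90.2 and 105 CPM in Alb/MDA-9. Of 13 endothelial markers 4 fell and 0 rose, with sums of 301 to 319.8 CPM and 246 to 255 CPM. Of 6 cholangiocyte markers 1 fell and 3 rose among 5 tested, and Cftr was at 0. Lymphocyte markers were too low to test, and 4 of 6 were at 0. The part of these cell types in the results on stellate cell and matrix genes was not tested.

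Quiescent stellate cell markers fell for 2 of 6 tested genes, Lrat and Ecm1, beside 7.09% of all genes tested. The median log2 change of the 6 was -0.47. Lrat, which encodes the enzyme that makes retinyl esters (chr3:82892579-82903973, GRCm38), had 8.03, 8.77 and 7.81 CPM in WT 1 to 3 and 5.08, 6.64 and 5.12 CPM in Alb/MDA-9 1 to 3. No Alb/MDA-9 library reached the lowest WT library, and the log2 change was -0.55 (edgeR, SE 0.17, adjusted p = 0.0457). That call rested on most libraries. It was lost without WT 1, WT 2, WT 3, Alb/MDA-9 1 or Alb/MDA-9 3, with log2 changes of -0.58 to -0.48 and adjusted p of up to 0.176, and with reads of either strand (adjusted p = 0.0519).

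Ecm1 encodes a secreted matrix protein known to hold TGF-beta in its latent form in the liver (chr3:95734147-95739569). Its levels were 151, 146 and 138 CPM in WT and 105, 102 and 114 CPM in Alb/MDA-9. The groups were well apart, at 145 ± 6.51 and 107 ± 5.96 CPM (SD, n = 3). The log2 change was -0.44 (edgeR, SE 0.07, adjusted p = 0.0015), and it was called in all 14 alternative settings. Per kb of exon it was the highest of the stellate markers, at 57.7 CPM per kb in WT and 42.5 in Alb/MDA-9.

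Among the markers that did not pass, the intermediate filament gene Des stood at 1.77, 1.90 and 2.54 CPM in WT and 1.05, 1.16 and 0.903 CPM in Alb/MDA-9. These values did not overlap, yet with 115 and 54 reads per group the change of -0.98 (SE 0.32) had an edgeR adjusted p of 0.0571, which passed with the stricter filter, upper-quartile factors or library totals. Hgf, which encodes the hepatocyte growth factor, was at 5.14 ± 0.441 and 3.65 ± 0.469 CPM (SD, n = 3), also without overlap, with a log2 change of -0.50 (adjusted p = 0.12). Reln, which encodes the large secreted glycoprotein reelin, was read at 143, 148 and 156 CPM in WT and at 168, 146 and 101 CPM in Alb/MDA-9. Here Alb/MDA-9 1 was the highest of the 6 libraries and Alb/MDA-9 3 the lowest. The lectin gene Colec11 was at 1.58 ± 0.426 and 1.68 ± 0.331 CPM.

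Of 4 pericyte and fibroblast genes 3 fell, beside 7.09% of all genes tested. These were both PDGF receptor genes and Col14a1, and the median log2 change of the 4 was -0.89. Pdgfra (chr5:75152292-75198215), the alpha receptor, had 5.35, 5.13 and 3.67 CPM in WT and 2.76, 2.10 and 1.32 CPM in Alb/MDA-9. Pdgfrb (chr18:61045150-61085061), the beta receptor and a main mitogen receptor of activated stellate cells, had 3.89, 3.49 and 4.38 CPM in WT and 2.21, 1.11 and 1.99 CPM in Alb/MDA-9. For both receptors the lowest WT library lay above the highest Alb/MDA-9 library. The log2 changes were -1.19 for Pdgfra (edgeR, SE 0.28, adjusted p = 0.0139) and -1.14 for Pdgfrb (SE 0.28, adjusted p = 0.0168).

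Col14a1 (chr15:55307750-55520803), which encodes a collagen that sits on fibril surfaces, had 7.83, 8.97 and 10.8 CPM in WT and 5.80, 7.28 and 4.52 CPM in Alb/MDA-9. The highest Alb/MDA-9 value lay just below the lowest WT value, and the log2 change was -0.64 (edgeR, SE 0.20, adjusted p = 0.0455). Rgs5, which encodes a regulator of G-protein signalling and marks pericytes, had the highest level of this role per kb of exon. It was read at 17.2, 22.4 and 21.7 CPM in WT and 19.6, 20.5 and 18.003 CPM in Alb/MDA-9, with overlapping groups and a log2 change of -0.08 (95% interval -0.33 to 0.18). The 3 calls of this role depended on single libraries. Pdgfra lost its call without WT 1 or WT 2 (log2 change -1.09 and -1.13), Pdgfrb without WT 1, WT 3 or Alb/MDA-9 2 (-1.15, -1.06 and -0.90), and Col14a1 without WT 1, WT 2, WT 3, Alb/MDA-9 1 or Alb/MDA-9 3 (-0.75 to -0.49), so that 0 of 4 genes were called without WT 1.

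Of the small leucine-rich proteoglycans, which bind collagen fibrils, Dcn and Bgn fell and Lum did not pass. Dcn encodes decorin (chr10:97479609-97518143). It had 89.3, 87.5 and 88.8 CPM in WT and 52.7, 55.9 and 50.2 CPM in Alb/MDA-9, a log2 change of -0.74 (edgeR, SE 0.07, adjusted p = 3.1e-05). The WT libraries lay close together, far above the others. Bgn encodes biglycan (chrX:73483602-73495933). It had 25.7, 28.7 and 26.3 CPM in WT and 12.5, 14.4 and 14.5 CPM in Alb/MDA-9, a log2 change of -0.96 (SE 0.11, adjusted p = 8.28e-05). Both were called in all 14 alternative settings. Lum, which encodes lumican, was low at 1.18 ± 0.331 and 0.932 ± 0.342 CPM (SD, n = 3), and its groups overlapped.

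Neither of the contractile genes passed the test (edgeR; 1 was lower at an unadjusted p under 0.05, and DESeq2 called 0). Tagln, which encodes the actin-binding protein transgelin, had 66.4, 66.5 and 62.9 CPM in WT and 60.4, 62.3 and 66.1 CPM in Alb/MDA-9. Its groups overlapped and the 95% interval of the log2 change was -0.21 to 0.10. Acta2, which encodes the smooth muscle actin that marks activated stellate cells, had 12.0, 11.5 and 9.29 CPM in WT. In Alb/MDA-9 it had 4.53, 6.99 and 10.9 CPM, so that Alb/MDA-9 3 alone lay within the WT range. With all libraries its log2 change was -0.56 (SE 0.25, adjusted p = 0.162). Without Alb/MDA-9 3, the library that stood apart on the second principal component, it was -0.93 (adjusted p = 0.00416), and it also passed with no low-count filter (-0.57, adjusted p = 0.00939).

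Of the 11 collagen genes, with a median log2 change of -0.52, 5 fell and 0 rose, beside 7.09% and 7.35% of all genes tested. Col1a1 and Col1a2, which encode the chains of type I collagen and are hallmarks of activated stellate cells, were not among the 5. Col1a1 had 7.42, 8.51 and 12.1 CPM in WT and 9.84, 10.2 and 10.3 CPM in Alb/MDA-9, with all Alb/MDA-9 libraries inside the WT range. Its log2 change was 0.12 (95% interval -0.27 to 0.50). Col1a2 was at 4.90 ± 1.04 and 4.61 ± 0.447 CPM (SD, n = 3), with an interval of -0.53 to 0.37.

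Col3a1 (chr1:45311538-45349706), the type III chain whose promoter window is printed above, had 8.43, 9.13 and 8.34 CPM in WT. In Alb/MDA-9 it had 6.35, 5.47 and 5.96 CPM, all below WT, a log2 change of -0.54 (edgeR, SE 0.15, adjusted p = 0.0308). Col5a2 (chr1:45374321-45503282), a type V chain that helps start fibrils, had 6.51, 6.51 and 5.98 CPM in WT and 3.43, 4.19 and 3.97 CPM in Alb/MDA-9. The groups were again separate, and its log2 change was -0.71 (SE 0.18, adjusted p = 0.0189). The partner chain Col5a1 was at 3.23, 5.23 and 4.85 CPM in WT and 1.88, 2.97 and 2.83 CPM in Alb/MDA-9, also separate, with a log2 change of -0.79 that missed the threshold (adjusted p = 0.065). The Col3a1 call was lost without WT 1, WT 2, WT 3 or Alb/MDA-9 2 (-0.56 to -0.49) and that of Col5a2 without WT 1, WT 2 or Alb/MDA-9 1 (-0.69, -0.69 and -0.63), which left 0 called fibrillar collagens without WT 2. Col5a1 passed without WT 1 (-0.98) or Alb/MDA-9 3 (-0.87), and with library totals (-0.90) or no filter (-0.80).

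Col4a1 (chr8:11198423-11312826) had 381, 415 and 393 CPM in WT and 278, 290.4 and 301 CPM in Alb/MDA-9. Col4a2 (chr8:11312805-11449287), which encodes the partner chain of the same type IV trimer, had 286, 315 and 315 CPM in WT and 183, 196 and 249 CPM in Alb/MDA-9. Both genes of the shared promoter region were thus lower in every Alb/MDA-9 library, with log2 changes of -0.45 (edgeR, SE 0.07, adjusted p = 0.00101) and -0.55 (SE 0.10, adjusted p = 0.00388), called in all 14 alternative settings. Their 53.1 and 46.1 CPM per kb in WT stood far above the fibrillar collagens, which had at most 1.43 CPM per kb. The ratio of Col4a1 to Col4a2 in CPM averaged 1.30 (SD 0.0484, n = 3) over the WT libraries and 1.40 (SD 0.167, n = 3) over the Alb/MDA-9 libraries. The type VI collagen genes of the microfibrils did not pass. Col6a1, Col6a2 and Col6a3 had log2 changes of -0.32, -0.52 and -0.39, edgeR adjusted p of 0.516, 0.303 and 0.471, and groups that overlapped.

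**Figure D2:**
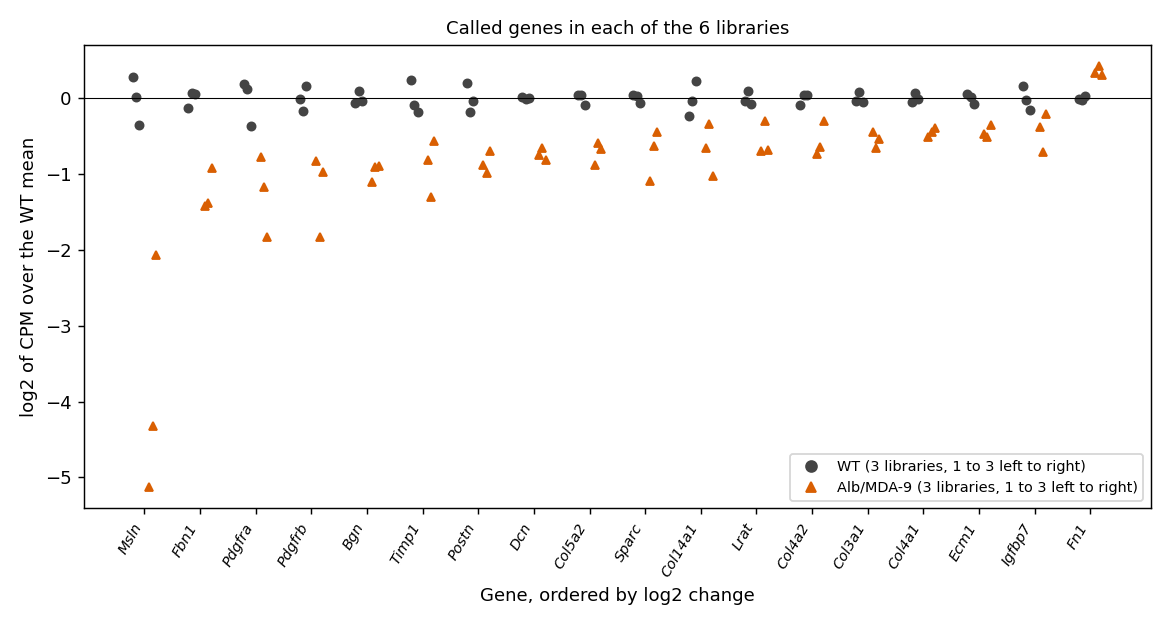
Log2 of each library's CPM over the WT mean (y axis) for the 18 called genes, ordered by change (x axis), with WT as circles and Alb/MDA-9 as triangles. For every gene plotted the triangles lie on 1 side of the circles, and the spread within Alb/MDA-9 is widest for Msln, where Alb/MDA-9 3 is nearest to WT.

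All 5 tested glycoprotein and matricellular genes were called, 4 lower and 1 higher, beside 7.09% and 7.35% of all genes tested. Fbn1, which encodes the microfibril protein fibrillin 1 (chr2:125300594-125507993), had 5.96, 6.82 and 6.75 CPM in WT and 2.43, 2.50 and 3.43 CPM in Alb/MDA-9. Every WT library lay well above every Alb/MDA-9 library, with a log2 change of -1.22 (edgeR, SE 0.21, adjusted p = 0.0018). Postn, which encodes the fibroblast protein periostin (chr3:54361109-54391037), had 11.5, 8.82 and 9.76 CPM in WT and 5.47, 5.07 and 6.20 CPM in Alb/MDA-9 (log2 change -0.85, SE 0.16, adjusted p = 0.0044). Sparc, which encodes the collagen-binding protein osteonectin (chr11:55394500-55423183), had 38.0, 37.6 and 35.5 CPM in WT and 17.3, 24.0 and 27.1 CPM in Alb/MDA-9 (-0.70, SE 0.13, adjusted p = 0.00388). For both, every Alb/MDA-9 library was below every WT library. Fbn1, Postn and Sparc were called in all 14 alternative settings.

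Igfbp7, which encodes a secreted insulin-like growth factor binding protein also made by endothelium (chr5:77349240-77408041), had 35.7, 31.3 and 28.6 CPM in WT and 24.5, 19.6 and 27.5 CPM in Alb/MDA-9. The nearest libraries of both groups lay close together, and the log2 change was -0.42 (edgeR, SE 0.13, adjusted p = 0.0424). This call was lost without WT 1, WT 2, Alb/MDA-9 1 or Alb/MDA-9 2 (-0.44 to -0.30), and with reads of either strand (-0.42, adjusted p = 0.0519).

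Fn1, which encodes fibronectin (chr1:71585520-71653200), was the 1 gene that rose. It had 2698, 2663 and 2762 CPM in WT and 3402, 3642 and 3356 CPM in Alb/MDA-9, with every Alb/MDA-9 library above every WT library. Its log2 change was 0.36 (edgeR, SE 0.07, adjusted p = 0.00667), and 0.34 without WT 2, where the adjusted p was 0.0587. Fn1 was also by far the most abundant of the 41 genes per kb of exon, at 232 CPM per kb in WT and 297 in Alb/MDA-9. It held 40.8% of their summed level per kb in WT and 53.8% in Alb/MDA-9, while the share of Ecm1 was 10.2% and 7.70% and that of Col4a1 9.37% and 7.04%.

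**Figure D3:**
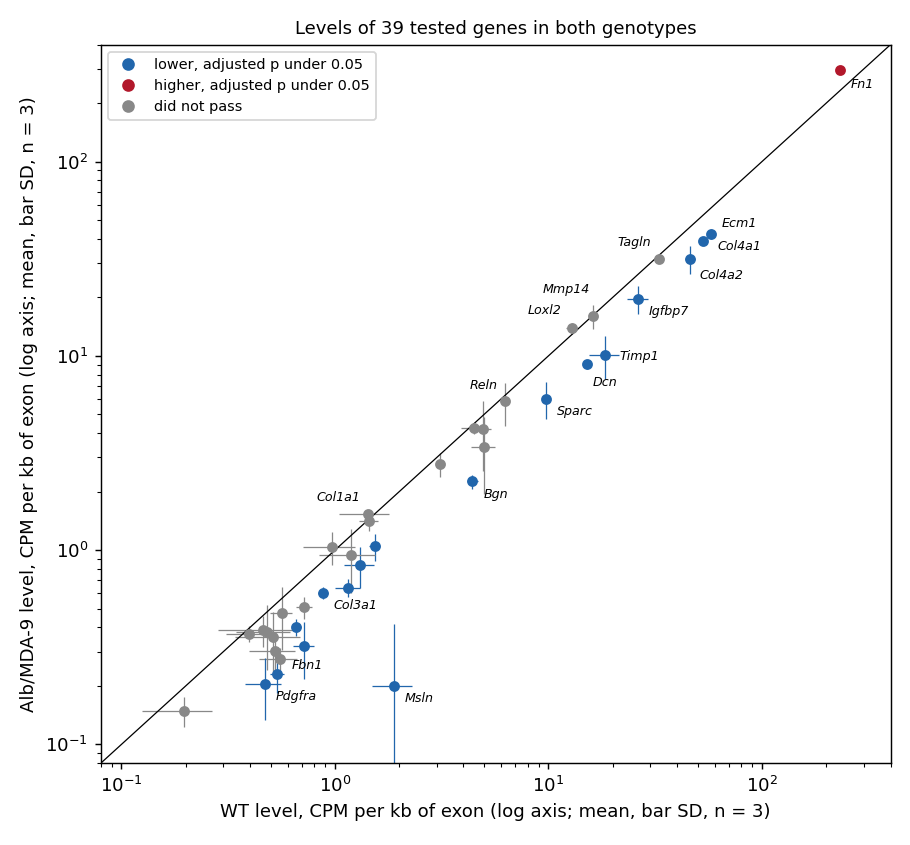
Mean level in WT (x axis) against Alb/MDA-9 (y axis), both in CPM per kb of exon on log axes, for the 39 tested genes, with SD bars (n = 3) and the line of equality. Fn1 lies above the line at 232 and 297, and Msln lies farthest below it, at 1.89 and 0.20.

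Crosslinking enzymes, which join collagen and elastin chains, were not called (0 of 2 by edgeR or DESeq2, and 0 at an unadjusted p under 0.05). Loxl2 had 67.3, 74.7 and 67.2 CPM in WT and 69.8, 79.4 and 76.2 CPM in Alb/MDA-9, with a log2 change of 0.11 (95% interval -0.06 to 0.28). It shares 2348 identical bases with the pseudogene Gm21451, so its counts are uncertain. Lox had 24.4, 25.3 and 21.1 CPM in WT and 25.9, 23.1 and 11.1 CPM in Alb/MDA-9. Alb/MDA-9 3 was again the library that lay apart, and the interval of the log2 change was -0.72 to 0.25.

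Among matrix proteases and their inhibitors 1 of 5 fell, beside 7.09% of all genes tested. This was Timp1, which encodes a secreted inhibitor of matrix metalloproteinases (chrX:20870166-20874735) and had the highest level of its role per kb in WT, 18.4 CPM per kb. It had 19.3, 15.4 and 14.4 CPM in WT and 9.28, 6.64 and 11.0 CPM in Alb/MDA-9, without overlap, a log2 change of -0.87 (edgeR, SE 0.18, adjusted p = 0.00647) that was called in all 14 alternative settings. Mmp14, the membrane-bound metalloproteinase, had 96.9, 95.7 and 96.9 CPM in WT and 84.4, 92.1 and 110.3 CPM in Alb/MDA-9. The WT libraries lay inside the range of Alb/MDA-9, and the interval of the log2 change was -0.21 to 0.18. The gelatinase gene Mmp2 and the inhibitor genes Timp2 and Timp3 had log2 changes of -0.23, -0.25 and -0.17, with edgeR adjusted p of 0.696, 0.687 and 0.348 and overlapping groups.

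The cytokine gene Tgfb1, which encodes the main profibrotic factor acting on stellate cells, did not pass the test. It had 7.62, 7.79 and 6.39 CPM in WT and 6.24, 7.69 and 7.47 CPM in Alb/MDA-9, a log2 change of -0.03 with a 95% interval of -0.38 to 0.32.

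Msln, which encodes mesothelin of the mesothelial covering of organs (chr17:25748613-25754378), had the largest change of the 39 tested genes. It had 7.02, 5.84 and 4.56 CPM in WT and 0.166, 0.291 and 1.38 CPM in Alb/MDA-9, from 330 and 31 reads per group. Alb/MDA-9 3 was well above the other Alb/MDA-9 libraries and still below every WT library. The log2 change was -3.26 (edgeR, SE 0.47, adjusted p = 0.000669), called in all 14 alternative settings. It passed the low-count filter through its WT libraries alone, a route that itself selects for a difference. Other mesothelial markers gave no second measure: Upk3b, Upk1b, Gpm6a and Lrrn4 had 0 reads in all 6 libraries, Wt1 had 10 reads in WT and 2 in Alb/MDA-9, and Muc16 had 0 and 1.

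Other genes of these pathways, 128 in 10 lists chosen for function, moved in both directions. Of the 93 tested, 9 fell (9.68%, beside 7.09% of all genes) and 15 rose (16.1%, beside 7.35%), and the median of their log2 changes was -0.12. The same shares of all genes, 7.09% and 7.35%, stand beside the counts of each list below. Without Alb/MDA-9 3, 15 of 96 fell, where 8.82% of all genes were lower. Gfap, a stellate marker used in the mouse, had 1 read in all. Of 3 fibroblast genes Gas6, which encodes a ligand of TAM receptors, rose from 53.1 ± 1.45 to 73.0 ± 5.10 CPM (means ± SD, n = 3, with edgeR log2 change 0.46 and adjusted p = 0.00161).

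Of the 6 tested genes on the smooth muscle list 3 rose, where Acta2 and Tagln had not passed. The tropomyosin gene Tpm2 rose from 82.6 ± 12.3 to 217 ± 5.17 CPM (means ± SD, n = 3, with edgeR log2 change 1.40 and adjusted p = 2.17e-06), with every Alb/MDA-9 library above every WT library. The calls of Cnn1 (calponin, 0.75) and Tpm1 (0.28) were lost without WT 1, WT 2, Alb/MDA-9 1 or Alb/MDA-9 2, with log2 changes of 0.53 to 0.80 and 0.20 to 0.34, and that of Tpm1 also without WT 3 (0.30). Actg2, Myl9 and Mylk, named after their values were seen, did not pass, with log2 changes of -0.09, 0.05 and -0.04. Without Alb/MDA-9 3, Mylk was called lower (-0.37). The smooth muscle myosin gene Myh11 had 8 and 7 reads per group. It was not tested, nor were Lmod1 (18 and 12 reads) and Synpo2 (7 and 11 reads).

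In TGF-beta signalling 4 of 17 genes rose and 0 fell (edgeR; 2 were lower at an unadjusted p under 0.05, and DESeq2 called 1 lower). The type I receptor gene Tgfbr1 rose from 135 ± 6.57 to 251 ± 24.8 CPM (SD, n = 3), a change of 0.89 on the log2 scale (adjusted p = 2.26e-05). Skil, which encodes a SMAD co-repressor, rose by 0.69 and Ccn2, which encodes connective tissue growth factor, by 0.68, from 1157 ± 33.7 to 1854 ± 198 CPM. Smad7, the inhibitory SMAD gene, named after its values were seen, rose by 0.58, a call lost without WT 1, WT 2, Alb/MDA-9 1 or Alb/MDA-9 2 (0.43 to 0.62). The type II receptor gene Tgfbr2 was called lower without Alb/MDA-9 3 (-0.43, adjusted p = 0.000917). None of the 3 tested PDGF ligand genes was called with all libraries by edgeR, while Pdgfb was lower without Alb/MDA-9 3 (-0.53).

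Among 16 tested genes of collagen processing 1 fell (6.25%) and 2 rose (12.5%), beside 7.09% and 7.35% of all genes. Serpinh1, which encodes the collagen chaperone HSP47, fell from 8.15 ± 1.03 to 3.58 ± 0.793 CPM (means ± SD, n = 3, with edgeR log2 change -1.19 and adjusted p = 0.0018). Loxl4, a lysyl oxidase gene, and Bmp1, which encodes a procollagen C-proteinase, rose by 0.84 and 0.57. Of 8 further collagen genes 2 rose, Col27a1 from 25.1 ± 2.40 to 66.3 ± 9.31 CPM and Col15a1 from 19.6 ± 2.81 to 47.2 ± 4.26 CPM, while no collagen among the 41 genes rose.

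The basement membrane genes beside Col4a1 and Col4a2 fell for 4 of 12 tested. The laminin chain genes Lama4 and Lama5 fell by 1.14 and 0.89 on the log2 scale. Hspg2, which encodes perlecan, fell from 32.7 ± 1.38 to 19.9 ± 4.17 CPM (means ± SD, n = 3, with edgeR log2 change -0.72 and adjusted p = 0.00255). Nid1, which encodes the nidogen that links laminin to type IV collagen, fell by 0.60 and was named after its values were seen.

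Further glycoproteins and proteoglycans fell for 2 of 10 tested and rose for 1, or 20% and 10%, beside 7.09% and 7.35% of all genes. Prelp, a leucine-rich proteoglycan gene like Dcn and Bgn, fell from 5.77 ± 0.880 to 2.52 ± 0.602 CPM (means ± SD, n = 3, with edgeR log2 change -1.20 and adjusted p = 0.00472). Emilin1, which encodes an elastic fibre protein, fell by 0.60, a call lost without WT 2, WT 3, Alb/MDA-9 1 or Alb/MDA-9 2 (-0.57 to -0.49). Thbs1, which encodes thrombospondin 1, rose from 209.7 ± 12.1 to 367 ± 35.8 CPM (0.81). Of 9 further proteases and inhibitors 1 fell and 1 rose, or 11.1% each, near the 7.09% and 7.35% of all genes. These were the plasminogen activator gene Plat, lower by 0.86, and the urokinase receptor gene Plaur, higher by 0.70.

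**Figure D4:**
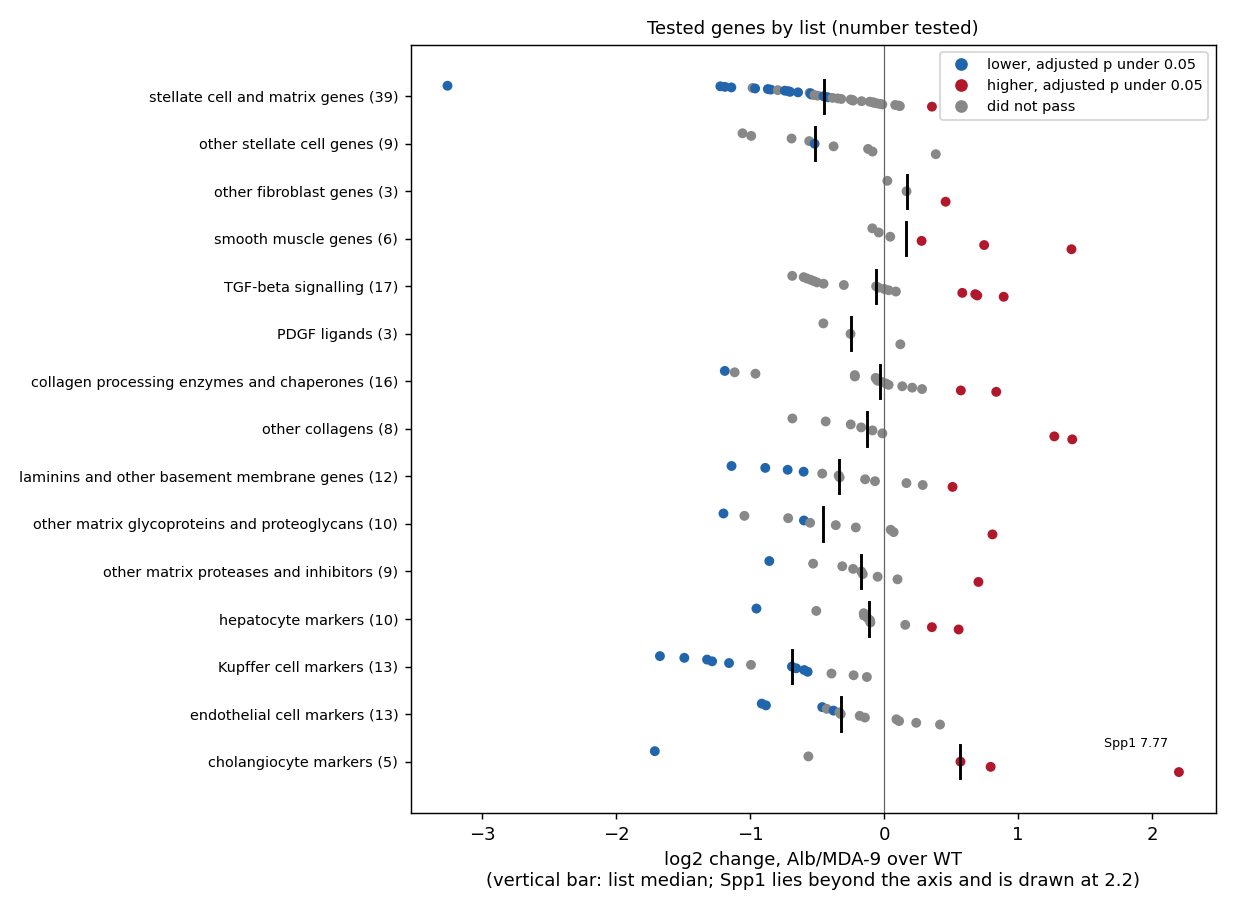
Log2 change in Alb/MDA-9 over WT (x axis) of each tested gene in the stellate cell and matrix set, the pathway lists and the cell type marker lists (y axis, number tested). Vertical bars are list medians, -0.45 for the 39 genes and -0.69 for the Kupffer markers, and the smooth muscle and other fibroblast lists have medians above 0 (0.16 and 0.17).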

How the data were processed

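RNA of cultured primary mouse hepatocytes was sequenced in 6 libraries, 3 WT and 3 Alb/MDA-9 (TruSeq RNA kit, HiSeq3000, per the labels' protocols). The authors deposited raw read counts per gene from STAR, not normalised, in 3 columns for either strand and each strand. The submitters' processing notes name FastQC 0.11.2, Trim Galore 0.6.6, STAR 2.7.9a, edgeR 3.18.1, mm10 and GRCm38. The annotation release is not given in the sources used here. The reverse-strand column held 96.9 to 97.2% of stranded reads and was used, and 4 rows that name no gene were left out. Apart from the first, these rows held 6312927 to 8196421 reads per library in that column, beside 16403918 to 19046739 gene reads. STAR counts reads placed at a single site and gene, so near-identical copies lose counts.

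Names and coordinates came from GENCODE M21 (55227 of 55487 identifiers). Genes were filtered with filterByExpr (minimum count 10), scaled by TMM and tested in edgeR 4.0.16 under R 4.3.3 (quasi-likelihood F test, 4 residual degrees of freedom), with Benjamini-Hochberg adjustment over 13296 genes at 0.05. Values are TMM-scaled CPM, also per kb of union exon length. SE is the log2 change over the square root of F. Group means carry the SD over 3 libraries. A gene at 0 reads was limited by depth to at most 0.158 to 0.183 CPM (3 reads, counting error only). Copies were searched with BLAST 2.17.0 (at least 95% identity over 200 bases). The script was tested on simulated data. Alternatives were DESeq2 1.42.0, RLE, upper-quartile and library-total scaling, other filters, either-strand reads, a replicate block and leaving out each library.

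The labels do not say that libraries are separate animals, so p-values measure the spread between libraries, which may be technical. No pair of libraries agreed within sampling noise. The genes, lists and tests were chosen with earlier results of these data known. Values per library are given for each called gene and for the gene of each role with the highest level per kb. Up to 3 called pathway genes per list with a mean of at least 1 CPM and the largest change are named. Other values per library were chosen after they were seen. Some genes of the pathway lists are not reported here.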

Additional observations from a re-analysis of the deposited data

How the results depend on the processing

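Of the 18 called stellate cell and matrix genes, 10 kept their call in all 14 alternatives (Ecm1, Dcn, Bgn, Col4a1, Col4a2, Fbn1, Sparc, Postn, Timp1 and Msln), and of the 21 uncalled genes 18 were not called in any. Msln is among these 10 although it passed the low-count filter through its WT libraries alone. None of the 18 called genes turned its sign in these alternatives, while 9 uncalled genes did in at least 1 (Reln, Colec11, Col1a1, Col1a2, Lox, Mmp2, Mmp14, Timp2 and Tgfb1). With reads of either strand 15 genes were lower. Leaving out a library gave 11 (without WT 1 or WT 2) to 17 genes lower and 0 (without WT 2) to 1 higher, with a median log2 change of -0.52 to -0.42. Over the whole table it gave 515 (WT 2 left out) to 1208 (Alb/MDA-9 3 left out) genes lower and 503 to 1178 higher, from the same fits, with 569 lower when WT 1 and 579 when Alb/MDA-9 2 was left out. The pathway lists gave 7 to 15 lower (15 without Alb/MDA-9 3) and 11 to 16 higher. With library totals 1622 genes of the whole table were lower and 525 higher, the median of all genes shifted by -0.10 and that of the 39 genes was -0.56. Without a low-count filter, an alternative for the pathway lists chosen after the data were seen, 14 pathway genes were lower. The cause of these changes was not tested. Low depth limits genes near 1 CPM, such as Ngfr, Lum, Colec11 and Des, where a difference of the size seen in other genes may not have been detectable.

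Same-numbered libraries showed no shared deviation from their group means, with correlations of -0.0408, -8.73e-05 and -0.0619. With 3 libraries per group this cannot show that the libraries were unpaired, and the labels name no pairing. With the replicate number as a block, 14 of the 39 genes were lower and 1 higher (826 and 775 of all genes), the median stayed at -0.45, and Lrat, Col14a1 and Col3a1 were no longer called.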

Other observations

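The ratio of the type I chain gene Col1a1 to the type III chain gene Col3a1 in CPM was 0.880, 0.933 and 1.45 in WT and 1.55, 1.86 and 1.73 in Alb/MDA-9. All 3 Alb/MDA-9 libraries were above the highest WT library, with means of 1.71 ± 0.157 and 1.09 ± 0.317 (SD, n = 3). This ratio was chosen after its genes had been seen to differ in their calls, and WT 3 lay much nearer to Alb/MDA-9 than the other WT libraries. Ratios of chains within 1 collagen type overlapped between the groups: Col1a1 to Col1a2 was 1.90 ± 0.129 and 2.21 ± 0.198 in WT and Alb/MDA-9, and Col5a1 to Col5a2 was 0.704 ± 0.180 and 0.656 ± 0.0935.

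Alb/MDA-9 3 was the highest library of its group for 18 of the 39 tested genes and the lowest for 11. Alb/MDA-9 1 was the highest for 7 and the lowest for 20, and Alb/MDA-9 2 the highest for 14 and the lowest for 8.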
